A study of Mus musculus with 33 samples.

Results

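The window on mouse chromosome 19 from 5785000 to 5860000 (build mm9, 75001 bp) holds Neat1 and Malat1, which are neighbouring genes for long noncoding RNAs. All peaks that overlapped it by at least 1 bp were taken from every deposited peak list, which gave 162 of 493214 peaks. Of these, 103 came from the 9 lists that represent a factor in a cell state and 59 from the 14 lists of single replicates. The window was selected on measured peak widths: it contains the widest pooled ING1 myoblast peak that was met in both replicate lists. The ING1 myoblast values below are a description and carry no test.

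Proteins were mapped in C2C12 cells, a mouse myoblast line, by chromatin immunoprecipitation and sequencing (ChIP-seq), and the deposited lists give only the ends of each peak. Myotubes had spent 96 h (4 days) in 2% horse serum, and ING1 (3 replicate lists), Sin3A (2) and LSD1 (1 list) were mapped in them. Myoblasts were collected while growing in 10% fetal bovine serum, and ING1 (2 replicate lists), LSD1 (1 list), Menin (2), MLL1 (2), Wdr5 (3) and MLL3 (1 list) were mapped in them. For ING1 the target was a Flag tag: myoblasts had been infected with a virus carrying tagged ING1 cDNA in pBabe-puro and selected with puromycin, so its peaks are those of added ING1. The other factors were precipitated with antibodies to the proteins in cells with no stated modification. No label ties replicates to separate cultures, so p-values measure only the spread between these lists, which may be technical. The design text of the series places Sin3A and LSD1 in growing myoblasts alone, while the sample labels, which were followed, place Sin3A in myotubes and LSD1 in both states. The number of replicates behind the LSD1 and MLL3 lists is not given in the sources used here.

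Neat1 RNA is the scaffold on which paraspeckles, nuclear bodies that hold RNA-binding proteins, assemble. Malat1 RNA is an abundant transcript that stays in the nucleus and collects at nuclear speckles, where splicing factors are stored. Methylation of histone H3 at lysine 4 (H3K4) marks active promoters and enhancers: MLL1, with its partner Menin, and MLL3 write it, Wdr5 is a core subunit shared by MLL complexes, LSD1 removes it, and ING1 reads its trimethylated form and brings in Sin3A, the scaffold of a histone deacetylase complex.

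In the RefSeq gene table of assembly GRCm38.p6, the genes Malat1, Mascrna, Neat1 and Frmd8 follow one another in this order along chromosome 19. Mascrna is a small RNA cut from the Malat1 transcript. The files pair no peak with a gene and a gene annotation of build mm9 was not used here, so peaks are named by position and none is assigned to an exon, an intron or a promoter. For the same reason the state of the cells was not checked against marker genes. The promoter of Malat1 (RefSeq, GRCm38.p6, minus strand, 250 bases before to 50 after the start) is shown because its CG dinucleotides, in capitals, are the bases that the CXXC domain of MLL1 binds when they are unmethylated.
Malat1 promoter: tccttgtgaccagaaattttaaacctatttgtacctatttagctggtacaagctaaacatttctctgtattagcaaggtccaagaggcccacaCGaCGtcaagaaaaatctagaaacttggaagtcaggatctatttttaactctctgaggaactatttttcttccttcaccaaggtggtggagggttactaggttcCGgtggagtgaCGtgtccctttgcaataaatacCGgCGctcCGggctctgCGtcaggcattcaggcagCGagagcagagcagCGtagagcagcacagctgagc
This promoter held 10 CG dinucleotides, against a median of 7 in 32841 promoters of the same length, and 56.5% of those promoters held fewer. Motifs were searched on both strands. TGACGT, the core of the ATF/CREB site, was found at 2 positions and occurs in 7.51% of all promoters, and CANNTG, the E-box of the MyoD family, at 1 position and in 72.3%. GGGCGG (35.7% of promoters) and TATAAA (13.6%) were not found, and no match overlapped a match of another motif. Neat1 has no entry in the promoter table.

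All 9 lists had peaks in the window, where the rule itself had fixed the presence of an ING1 myoblast peak. Of 34267 other windows of equal size, 5443 held a peak of the pooled ING1 myoblast list. Among those 5443 were the 1408 windows (4.11% of all) that held peaks of all 9 lists. Other windows held a peak of ING1 in 17.5% of cases, of Sin3A in 24.6% and of LSD1 in 16.6% for the myotube lists. For the myoblast lists the shares were 15.9% for ING1, 9.49% for LSD1, 42.0% for Menin, 17.3% for MLL1, 62.7% for Wdr5 and 85.6% for MLL3. For ING1 most windows held no peak, and the Neat1 and Malat1 window held 16 peaks in myotubes and 13 in myoblasts. Sin3A had 7 peaks, LSD1 13 in myotubes and 8 in myoblasts, Menin 17, MLL1 9, Wdr5 9 and MLL3 11. Other windows with at least as many peaks numbered 7753 (22.6%) for MLL3, 602 (1.76%) for Menin and 382 (1.11%) for Wdr5. They numbered 1 and 3 for ING1 in myotubes and myoblasts, 175 and 3 for LSD1, 51 for Sin3A and 9 for MLL1.

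Peaks of ING1 covered 22.3% of the window in myotubes and 19.1% in myoblasts, which is 74.0 and 72.1 times the share of the nuclear chromosomes that these lists cover. No other window in the grid was covered as much by either ING1 list, and with the grid shifted the number was 0 for myotubes and 1 for myoblasts. The rule chose the window for a wide ING1 myoblast peak, so its rank in that list was partly fixed in advance. In ING1 myotube replicates 1 and 2, 12 and 26 other windows were covered at least as much, and replicate 3 had no peak. For myoblast replicates 1 and 2 the numbers were 0 and 1. LSD1 covered 25.5% in myotubes (49.9 times its nuclear share; 64 other windows were covered at least as much) and 6.38% in myoblasts (84.3 times; 0 other windows, or 2 with the shifted grid). Sin3A covered 10.9% (24.0 times, 11 other windows) and Wdr5 31.7% (17.7 times, 4 other windows). Menin covered 42.2%, at 15.7 times its nuclear share with 69 other windows covered at least as much. MLL1 covered 8.82% at 35.4 times, with 37 such windows. MLL3, whose list has 218204 peaks, covered 27.3% at 4.13 times, and 1193 other windows (3.48%) were covered at least as much.

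**Figure D1:**
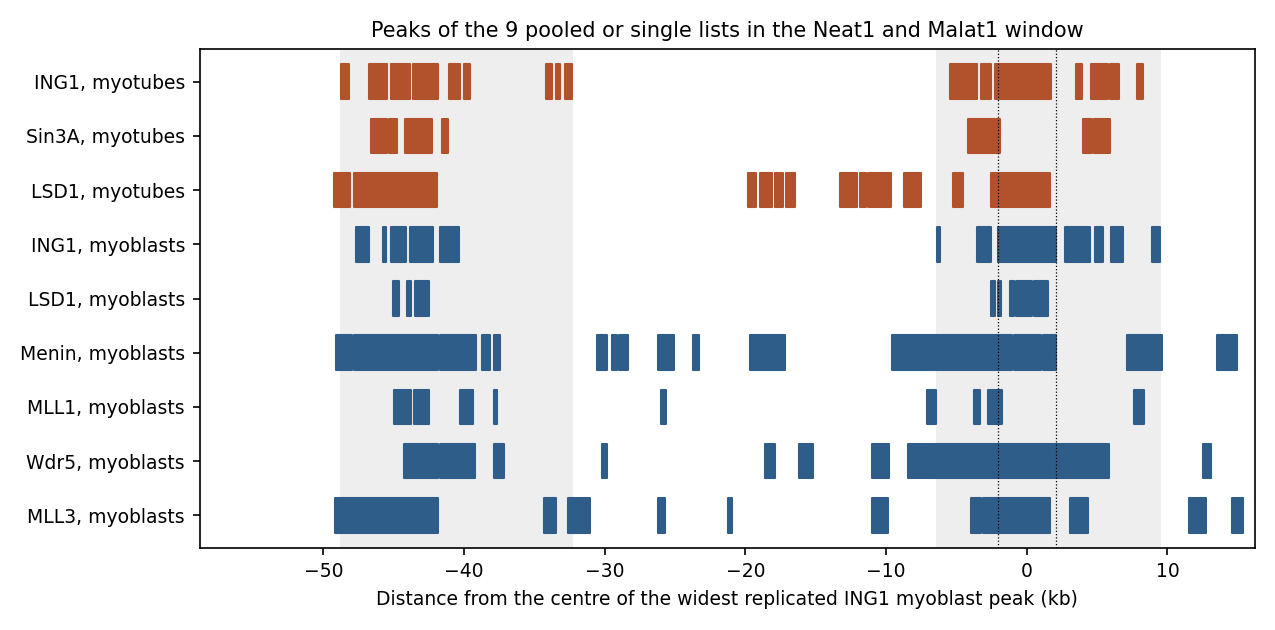
Peaks of the 9 pooled or single lists across the window, with the distance in kb from the centre of the widest replicated ING1 myoblast peak on the x axis and a row for each list (brown, myotubes; blue, myoblasts). Grey bands mark the first and the second cluster of ING1 peaks and dotted lines the ends of that peak; ING1, Sin3A and the myoblast LSD1 list have peaks in the bands alone, while LSD1 of myotubes, Menin, MLL1, Wdr5 and MLL3 also have peaks between them.

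ING1 peaks of both states fell into 2 clusters. The first ran from 5795077 to 5811440 (16.4 kb), the second from 5837443 to 5853290 (15.8 kb), and the 26.0 kb between them held no ING1 peak, since the clusters were split at the widest gap of the ING1 lists. Sin3A peaks lay in these clusters too, 4 in the first and 3 in the second, as did those of LSD1 in myoblasts, 3 and 5. Neither list was used to draw the clusters, and both had 0% of the stretch between covered. LSD1 in myotubes behaved otherwise, with 9 of its 13 peaks between the clusters, where they covered 27.6%. The MLL factors also had peaks between the clusters: Menin covered 34.4% of that stretch, Wdr5 20.6%, MLL3 12.4% and MLL1 3.99%.

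**Figure D2:**
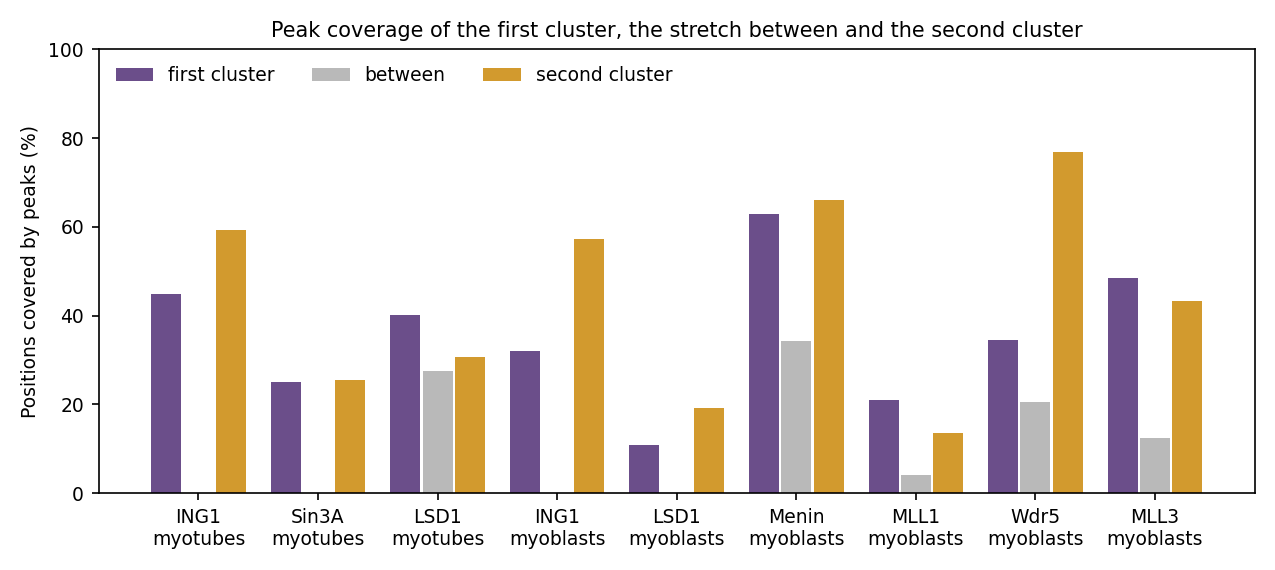
Share of positions covered by peaks, in percent, in the first ING1 cluster, the stretch between and the second ING1 cluster, for each of the 9 lists (bars; each is the value of 1 list, with no error). LSD1 of myotubes covers 27.6% of the stretch between and LSD1 of myoblasts 0%; Wdr5 reaches 76.9% in the second cluster.

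The widest replicated ING1 myoblast peak ran from 5841738 to 5845857 (4120 bp) in the second cluster. It was the third widest of 8196 pooled ING1 myoblast peaks and the widest of the 338 that met a peak in both replicate lists, of which the next had 3825 bp. In myotubes an ING1 peak of 3993 bp, from 5841556 to 5845548 and rank 5 in width of 9698, covered 92.5% of it. LSD1 covered 89.8% of it in myotubes, with a single peak of 4177 bp, and 66.3% in myoblasts, with 4 separate peaks. Among the myoblast lists Wdr5 covered 100%, Menin 94.5% and MLL3 90.1%. Sin3A of myotubes and MLL1 touched only its lower end, over 169 bp (4.10%) and 303 bp (7.35%).

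Of all pooled ING1 myoblast peaks, 72.0% met a peak of ING1 in myotubes, 76.1% of Sin3A, 37.8% of LSD1 in myotubes and 36.0% of LSD1 in myoblasts. Menin was met by 87.8%, Wdr5 by 83.9%, MLL1 by 37.9% and MLL3 by 18.7%, and all 8 other lists by 2.06%. The wide peak belonged to that 2.06%, as did 3 further ING1 myoblast peaks of the window, from 5798609 to 5799695, from 5799940 to 5801608 and from 5840287 to 5841270. Over the whole window 7 of the 13 ING1 myoblast peaks met MLL3, 11 met ING1 of myotubes and 6 met LSD1 of myotubes. These shares were above those of the whole list. Shares below those of the whole list were found for Menin (10 of 13), Wdr5 (9), Sin3A (8), MLL1 (4) and LSD1 of myoblasts (4).

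Replicate lists gave the wide peak unequal backing. ING1 covered 40.5% of it in myotube replicate 1 and 0% in replicates 2 and 3, against 22.3% in myoblast replicate 1 and 78.3% in replicate 2. The ranges of the states overlapped only through myotube replicate 1, and the myoblast lists were those that chose the peak. Menin covered 34.8% and 15.5% in its 2 lists. Wdr5 covered 0%, 0% and 48.8% in replicates 1, 2 and 3, although its pooled list covers the whole peak. Neither MLL1 replicate list had a peak there. Sin3A covered 39.8% in replicate 1 and 0% in replicate 2. That Sin3A replicate 1 peak, from 5844026 to 5845666, met no peak of the pooled Sin3A list, whereas 97.3% of all replicate 1 peaks did.

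ING1 was compared between the states over the whole window. Of the 16 myotube peaks, 9 met a myoblast peak (62.1% did in the whole list), and of the 13 myoblast peaks, 11 met a myotube peak. The 9496 bp in common were 56.8% of the myotube and 66.4% of the myoblast coverage. Among the 7 myotube peaks with no myoblast partner were 3 narrow ones between 5809647 and 5811440 (406, 313 and 444 bp), which met no pooled or single list other than MLL3; a Wdr5 replicate 1 peak, from 5810374 to 5811024, overlapped 2 of them. A wider one, from 5838329 to 5840240 (1912 bp), was covered in full by Menin and Wdr5 of myoblasts. None of the ING1 myotube replicate lists had a peak on it or on the 3 narrow ones, while a peak of Sin3A replicate 1, from 5839652 to 5841036, overlapped its upper end. The myoblast peaks with no myotube partner were those from 5837443 to 5837615 (173 bp) and from 5852680 to 5853290 (611 bp).

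In the replicate lists ING1 covered 2.97%, 2.87% and 0% of the window in myotubes, against 2.13% and 8.00% in myoblasts. The states overlapped, and the myotube list at 0% was the shortest of all 14, with 126 nuclear peaks. In the first cluster ING1 had peaks in replicates 1 and 2 of myotubes and in both myoblast lists. In the second cluster it had a peak in replicate 1 alone of the 3 myotube lists and in both myoblast lists. The contrast was not tested because the rule used the myoblast lists.

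LSD1, the demethylase, had 1 list in each state, so its difference has no replicate check. In myotubes it covered 19116 bp of the window and in myoblasts 4785 bp. The myotube list is the longer, with 16504 nuclear peaks against 4442. It covers 0.511% of the nuclear chromosomes, against 0.0757% for the myoblast list. Relative to these shares, coverage of the window was 49.9 times in myotubes and 84.3 times in myoblasts. All 8 myoblast peaks met a myotube peak (45.1% did in the whole list), and they met only 2 myotube peaks, one in each cluster, so they are not 8 separate observations. The first cluster's myotube peak ran from 5795944 to 5801879 (5936 bp, rank 37 in width of 16504) over myoblast peaks of 433, 321 and 1004 bp. Of the 13 myotube peaks, 2 met a myoblast peak (11.5% in the whole list), 8 met Menin (43.3%) and 4 met ING1 of myotubes (21.9%). The 9 peaks between the clusters had widths from 417 to 1264 bp, and 3 of them met none of the other 8 lists. Over all 9 lists together 64.3% of peaks met none, but 218204 of those 409322 peaks are of MLL3. The share for LSD1 in myotubes alone was not computed and must be lower, since 43.3% of its peaks met Menin.

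The 8 LSD1 myoblast peaks all met ING1 of myoblasts (71.7% in the whole list) and all met MLL3 (19.5%), and MLL3 peaks covered 100% of their length. They fell within 2 MLL3 peaks, from 5794595 to 5801914 (7320 bp, rank 87 of 218204) and from 5840648 to 5845449 (4802 bp). Sin3A was met by 5 of the 8 (84.8% in the whole list), Wdr5 by 7 (88.9%) and MLL1 by 5 (37.6%). Menin and ING1 of myotubes were met by all 8 (93.0% and 79.6% in the whole list).

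For Sin3A, the deacetylase scaffold, 6 of 7 peaks met an ING1 peak of myotubes (52.5% in the whole list). In the other direction the share was below that of the whole list, with 7 of the 16 ING1 peaks meeting Sin3A (79.7%). Its 3 wider peaks ran from 5839652 to 5841906 (2255 bp), from 5799590 to 5801537 (1948 bp) and from 5797162 to 5798330 (1169 bp). The other peaks began at 5798455, 5802260, 5847759 and 5848577 and had 409 to 1100 bp. Sin3A covered 9.27% of the window in replicate 1 and 0% in replicate 2, a list of 430 nuclear peaks. ING1 averaged 1.95% ± 1.69 (SD, n = 3) and Sin3A 4.64% ± 6.56 (SD, n = 2), an ING1 minus Sin3A difference of -2.69 percentage points (two-sided exact permutation p = 0.8, adjusted p = 0.8 over 2 tests; 0.2 is the smallest p that 10 arrangements allow). The sign of that difference turned when Sin3A replicate 1 was left out (1.95) and when coverage was divided by each list's nuclear coverage (19.9).

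All 9 MLL1 peaks met Menin, its partner (74.0% in the whole list), and 7 met Wdr5 (59.1%), and Menin covered 6614 of their 6617 bp. Menin covered much of the window in any case: 62.9% of the first cluster, 34.4% of the stretch between and 66.1% of the second cluster. The MLL1 samples also carry Menin as source name. The 3 widest MLL1 peaks were those from 5798782 to 5799993 (1212 bp), from 5800228 to 5801302 (1075 bp) and from 5841019 to 5842040 (1022 bp). The others began at 5803497, 5805899, 5817789, 5836697, 5840027 and 5851450, with widths of 218 to 938 bp. MLL1 had 5 peaks in replicate 1 and none in replicate 2, a list of 466 nuclear peaks. One of those 5, from 5839081 to 5839890, met no pooled MLL1 peak, while 90.5% of all replicate 1 peaks did.

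Menin had its wider peaks from 5795977 to 5801955 (5979 bp), from 5837716 to 5842772 (5057 bp) and from 5834243 to 5837610 (3368 bp). Wdr5 had the widest peak of its whole list of 59248 in the window, from 5835354 to 5849634 (14281 bp), ahead of 8958 bp for the next; its other peaks in the window had at most 2443 bp, from 5799522 to 5801964, followed by 2441 bp from 5802107 to 5804547. None of its replicate lists had a peak over 1469 bp in the window. Within the extent of that 14281 bp peak replicate 1 had 2 peaks, replicate 2 had 1 and replicate 3 had 5. The 2 widest of the 11 MLL3 peaks, 1 in each cluster, were given with the LSD1 myoblast peaks; the next in width ran from 5811202 to 5812767 (1566 bp).

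Wdr5 covered 7.31%, 0.865% and 4.93% of the window in its replicates, against 21.7% and 7.39% for Menin. All Wdr5 values lay below both Menin values. The means were 4.37% ± 3.26 (SD, n = 3) for Wdr5 and 14.6% ± 10.1 (SD, n = 2) for Menin, a Wdr5 minus Menin difference of -10.2 percentage points (two-sided exact permutation p = 0.2, the smallest possible here; adjusted p = 0.4 over 2 tests). Menin lists are longer, with 23164 and 15865 nuclear peaks against 9417, 5024 and 5066 for Wdr5. Divided by the share of the nuclear chromosomes that each list covers, the sign turned: 24.3 ± 16.0 for Wdr5 and 18.6 ± 9.08 for Menin, a difference of 5.69 (exact permutation p = 0.8).

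**Figure D3:**
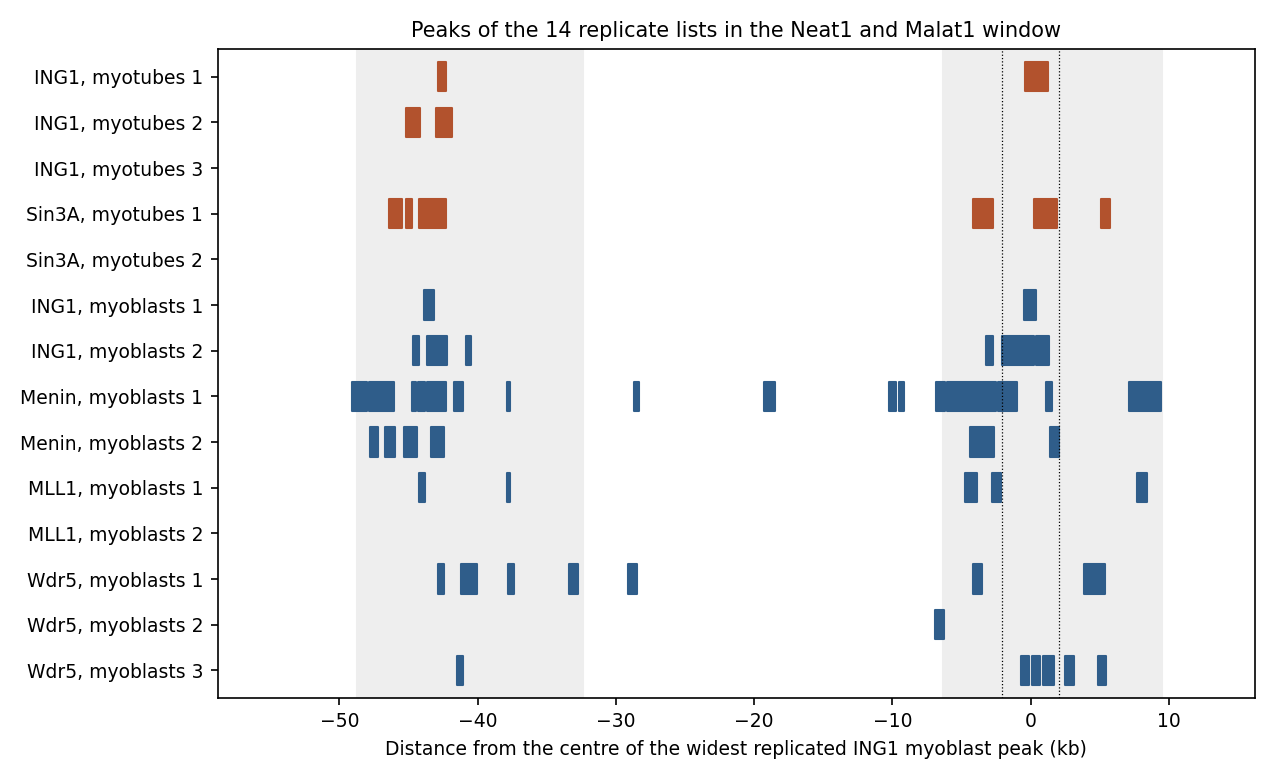
Peaks of the 14 replicate lists across the window, drawn on the same scale and with the same colours, bands and dotted lines as the map of the pooled or single lists. ING1 myotube replicate 3, Sin3A replicate 2 and MLL1 replicate 2 have no peak; Menin replicate 1 has 16.

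Of the 14 replicate lists, 11 had a peak in the window. Among other windows, ING1 peaks of myotube replicates 1 and 2 were found in 5.48% and 6.21%, and those of myoblast replicates 1 and 2 in 1.17% and 11.8%. Sin3A replicate 1 had peaks in 17.6%, MLL1 replicate 1 in 8.87% and Menin replicates 1 and 2 in 24.1% and 20.2%. The shares for Wdr5 replicates 1, 2 and 3 were 19.0%, 11.7% and 11.7%. The 3 lists with no peak reached few windows: ING1 myotube replicate 3 had peaks in 0.374%, Sin3A replicate 2 in 1.20% and MLL1 replicate 2 in 1.00%. In turn, a peak of some replicate list met 3 of the 16 pooled ING1 myotube peaks (32.7% in the whole list), 5 of 7 for Sin3A (63.4%) and 5 of 13 for ING1 in myoblasts (58.4%). For Menin it was 10 of 17 (28.9%), for MLL1 4 of 9 (40.5%) and for Wdr5 4 of 9 (16.8%). Pooled and replicate lists may share reads, so this is no independent check. Of the Menin replicate 1 peaks 15 of 16 met the pooled list (92.3% in the whole list) and of the Wdr5 replicate 1 peaks 5 of 7 (89.8%).

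The 9 lists met on a few short stretches. All 9 covered 1186 bp of the window in 4 stretches, and at least 7 covered 7.47% of it, against 0.0429% of the nuclear chromosomes. The longest ran from 5800334 to 5801302 (969 bp) in the first cluster, 43.0 kb below the centre of the wide ING1 peak. Across all nuclear chromosomes there were 91 stretches common to all 9 lists, 21612 bp in total, and the one of 969 bp was the longest. The other 3 in the window had 38, 10 and 169 bp, the last of them from 5841738 to 5841906 at the lower end of the wide ING1 peak. In the middle of that peak 7 lists coincided, and the lists without a peak there were Sin3A and MLL1.

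**Figure D4:**
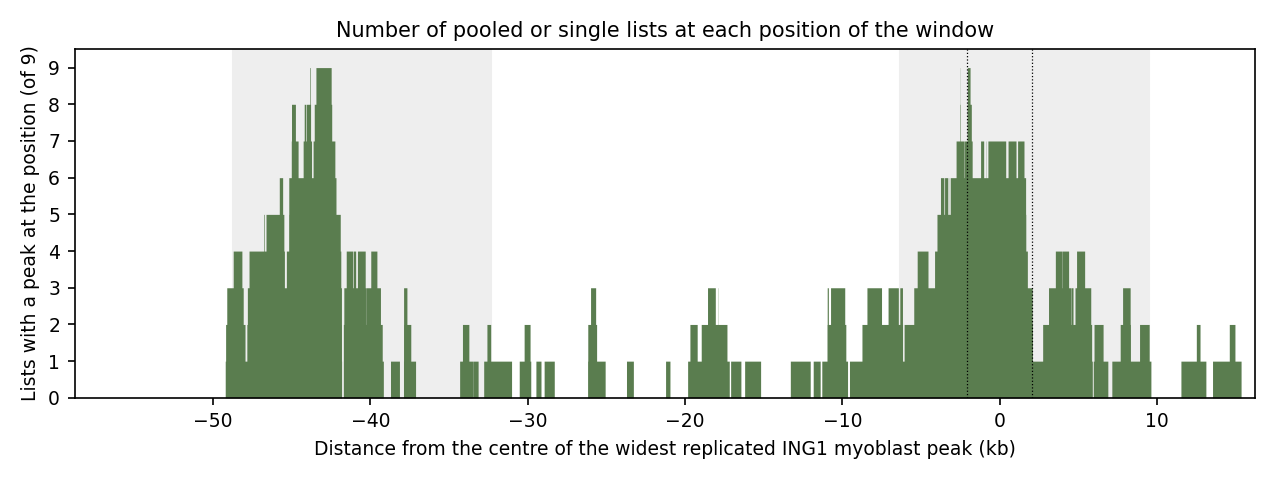
Number of the 9 pooled or single lists with a peak at each position, against the distance in kb from the centre of the widest replicated ING1 myoblast peak (grey bands, first and second ING1 cluster; dotted lines, ends of that peak). The count reaches 9 over 969 bp in the first cluster and over 169 bp at the lower end of the wide peak, and 7 in most of that peak.

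Replicate lists covered this 969 bp stretch as follows. ING1 covered 36.8%, 55.1% and 0% in myotubes and 29.1% and 100% in myoblasts. Sin3A covered 100% and 0%, Menin 100% and 90.8%, and Wdr5 35.4%, 0% and 0%. Both MLL1 replicate lists covered 0%, so the MLL1 peak there rests on the pooled list. In all, 8 of the 14 replicate lists had a peak on the stretch, with every factor that has replicates represented except MLL1.

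The 103 peaks of the 9 lists varied in company and in width. Of these, 25 met all 8 other lists, against 0.400% of all peaks, and 10 met none, against 64.3%. Both shares lean on MLL3, with 218204 of the 409322 peaks but 11 of the 103. For pooled ING1 myoblast peaks alone, 4 of 13 met all 8, against 2.06% in the whole list. The rule used that list and chose 1 of these 4 for its width, so this share is no independent check. Peak width was not taken into account in these shares. Peaks that met all 8 overlapped peaks of every other list, so they are not 25 separate observations. Menin had 4 of the solitary peaks, LSD1 in myotubes 3, and ING1 in myotubes, Wdr5 and MLL3 1 each. By width, 10 of the 103 were among the widest 1% of their own list (0.999% of all peaks), with 2 each for LSD1 in myotubes, Menin and MLL3 and 1 each for ING1 in myotubes, ING1 in myoblasts, LSD1 in myoblasts and Wdr5. The ING1 myoblast peak of this class is the wide peak that the rule chose for its width, so its place was fixed in advance. A peak of this class from each of the other lists named overlapped it. Neither Sin3A nor MLL1 had a peak of that class. Ends of peaks also coincided: the upper ends of 5 lists (LSD1 and ING1 in myotubes, MLL3, Menin and Wdr5) lay between 5801879 and 5801964, within 85 bp. This was the largest group of shared ends in the window, and how often such groups occur in other windows was not computed.

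Among the 338 pooled ING1 myoblast peaks that met both replicate lists, 26 (7.69%) met all 8 other lists. Peaks were then ranked by likeness to the wide peak, measured as the Euclidean distance between their percentages of coverage by the 8 other lists. The nearest lay on chromosome 11 from 59040013 to 59042369 (distance 77.5), followed by chromosome 17 from 35087238 to 35089466 (77.6) and chromosome 13 from 49061885 to 49063175 (78.1). All were far from a distance of 0. Sin3A covered 67.8%, 44.5% and 50.5% of them, against 4.10% of the wide peak. Its replicates 1 and 2 covered 39.8% and 0% of the wide peak. Other lists differed too. LSD1 of myotubes covered 45.2% of the chromosome 17 peak, against 89.8% of the wide peak. LSD1 of myoblasts covered 14.9% of the chromosome 13 peak, against 66.3% of the wide peak.

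At the limits of the window, the lowest peak inside was of LSD1 in myotubes, 9.57 kb from the lower end, and the nearest peak below that end was of Wdr5, 4.55 kb away. At the upper end the last peak inside, of MLL3, lay 0.869 kb from the limit and the nearest outside, also of MLL3, 4.83 kb beyond it.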

How the data were processed

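Per the file headers, the authors deposited for each peak its chromosome and its left and right boundary in bp, with no other value such as a height, a count or a significance. The submitters' processing notes name 2 genome builds, mm9 and NCBIM37, and the programs bedtools 2.17.0, Bowtie 0.12.9 and SAMtools 0.1.19. What each program did, which peak caller and threshold were used and how lists were pooled is not given in the sources used here, and the depth of each list is unknown. The 6 pooled lists, the 3 lists of LSD1 and MLL3, and the 14 replicate lists were read with Python 3.11.15, numpy 2.4.6 and pandas 2.3.3. Left boundaries were taken as 0-based, and printed starts are 1-based. MLL1 samples carry Menin as source name, and their antibody label was followed. The 10 input and 6 RNA samples were not analysed here.

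Peaks on chromosomes 1 to 19 and X, 20 in all, were used for genome-wide values. Peaks met when they overlapped by at least 1 bp. Nuclear coverage was taken over 2571 Mb, the summed stretch from the lowest to the highest peak on every chromosome. Other windows came from a grid of the same size, without those touching the window. Coverage per replicate list was compared by two-sided exact permutation over all arrangements, with Benjamini-Hochberg adjustment over 2 tests. The overlap routines were checked on simulated data. Named peaks were all those of ING1, LSD1, MLL1 and Sin3A in the pooled or single lists, given by position, by count or by range, and the 3 widest of Menin, Wdr5 and MLL3. The members, clusters and lists were chosen with earlier results of these data known. Promoter peaks of paraspeckle and muscle genes had been planned and need an mm9 annotation, which was not used here.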

Additional observations from a re-analysis of the deposited data

How the results depend on the processing

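All 9 lists kept a peak in the window when it was narrowed by 10 kb or widened by 25 kb at each end, with the wider 50% of each list, and with peak centres in place of overlaps. The 103 peaks became 67 with the wider 50% of each list and 79 with unions of the replicate lists, LSD1 and MLL3 unchanged (69 to 80 leaving out 1 replicate). The median coverage of the window over the 9 lists, 22.3%, was 28.9% in the narrowed window, 14.6% in the widened one, 17.5% with the wider 50% and 9.27% with unions (8.51% to 9.27% leaving out 1 replicate). The median share of the wide ING1 peak covered by the other 8 lists, 90.0%, was 48.2% with unions (44.1% to 48.2% leaving out 1 replicate). The cause of these shifts was not tested, apart from the shorter lists that unions and the wider 50% leave by construction.

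The Wdr5 minus Menin difference of -10.2 ranged from -17.4 (without Menin replicate 2) to -3.03 (without Menin replicate 1) leaving out 1 replicate and was 5.69 after scaling by nuclear coverage. The ING1 minus Sin3A difference of -2.69 ranged from -7.32 (without Sin3A replicate 2) to 1.95 (without Sin3A replicate 1) and was 19.9 after scaling. With a replicate block that paired numbers 1 and 2, the differences were -10.5 (exact p = 0.5) and -1.71 (exact p = 1). For same-numbered lists, correlations of their deviations over the other windows were 0.0359 and 0.0133 for Wdr5 and Menin, and 0.158 and -0.172 for ING1 and Sin3A. Menin and Sin3A have 2 lists each, so the deviations of the 2 lists mirror each other. Peak lists of unlike length cannot show whether same-numbered lists shared a culture or a batch, which was not tested. No test passed 0.05 under any setting, and none could. List by list, values were set against those of the pooled or single lists: a count was taken as kept within 1.5 times, a coverage within 1 SD of the replicate lists, and an LSD1 or MLL3 coverage, which has no such SD, only if equal. With unions 13 of 17 values moved, 12 of them downwards, and with 1 replicate left out of the unions 33 of 40, 32 downwards. Under the other settings 27 of 80 moved, 16 downwards and 11 upwards. The shifted grid was chosen after seeing the data. Lists without depth cannot separate a missing peak from a thin library.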
